A study of Penicillium citrinum with 6 samples.

Results

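The genes described here are 4 of the 17 genes whose product name is quinate permease, out of 9385 genes in the tables of *Penicillium citrinum*: PCI_3476, PCI_0093, PCI_5044 and PCI_9466. They were chosen by their FPKM (fragments scaled to gene length and to the library's mapped fragments, so a level per length) in both day 2 groups, which was higher in mycelium from tobacco leaves than in mycelium from plates. Their difference between those groups is therefore described below without a test. All samples were wild-type mycelium, with CY-H4 in the sample descriptions, and none was treated or mutated. Conidia were spread on Czapek-Dox plates and taken after 2 days (CK2D), or put on tobacco leaves and taken after 2 days (TL2D) or 3 days (TL3D), all at 25 °C, with 2 libraries per group. The labels do not spell out the group codes, which were read from the substrates and sampling days of the growth text. Whether the replicates are separate cultures is not stated, and the p-values cover the spread between these libraries, which may be technical.

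Quinate is a cyclic acid that many plants store, often as its ester with caffeic acid, chlorogenic acid, which tobacco leaves hold in quantity. In *Aspergillus* and *Neurospora* it enters the cell through a quinate permease, a membrane carrier of the sugar transporter family. Inside, quinate dehydrogenase, a catabolic 3-dehydroquinase and 3-dehydroshikimate dehydratase turn it into protocatechuate, whose ring is then opened to feed central metabolism. In *Aspergillus nidulans* the genes for these steps lie together as the qut cluster, with genes for an activator and a repressor. The cluster is switched on when quinate is present and preferred sugars are scarce. Many genes carry the permease name by likeness alone, and the files do not show which compound each product carries. No sequence of the 4 genes was at hand, since 0 of the gene numbers match the RefSeq table of this species, so neither sequences nor genome positions are given.

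Of 47 genes in a list of hyphal markers (chitin synthases, actin and septin genes), 44 reached 1 FPKM in each library, with sums from 3705 to 4077 FPKM. Of the 44 tested hyphal genes, 10 rose and 11 fell in TL2D against CK2D, where limma called 24.8% of 8286 tested genes higher and 29.4% lower, and without CK2D replicate 1 or 2 the counts were 2 and 0. Here and below, leaving out 1 replicate leaves that group with a lone library, which is assumed to vary like the other group, so a call kept or lost in such a fit also reflects which group's spread remains. In the conidial list, the 3 regulators of conidiophore development, brlA, abaA and wetA, summed to 763 and 663 FPKM in CK2D, 269 and 168 in TL2D, and 380 and 487 in TL3D. The whole conidial list of 8 genes, hydrophobins included, summed to 19358 to 20613 FPKM in CK2D, 7199 to 10101 in TL2D and 21328 to 24621 in TL3D, and no gene of it was at 0 in any library. Of its 8 genes 4 fell in TL2D against CK2D and 2 rose, against those 29.4% and 24.8% of all genes, and without CK2D replicate 1 or 2 the counts were 1 and 2. Much of the list's sum came from the hydrophobin gene PCI_0227. It stood at 17134 and 16188 FPKM in CK2D, 6085 and 3764 in TL2D, and 15365 and 17804 in TL3D. The 2 that rose were the hydrophobin genes PCI_2115 (5.34-fold) and PCI_9301 (163-fold). The part of the conidial list in the values below was not tested. FPKM summed to between 582600 and 614206 per library, and the read depth behind them is unknown. Replicates differed at least 2-fold in 394 of 7854 genes in TL2D, against 47 of 8012 in CK2D and 14 of 8123 in TL3D. In such bulk samples, fewer cells of a type and less RNA per cell cannot be told apart.

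PCI_0093 was the most abundant quinate permease gene in every library. It stood at 30.1 and 34.1 FPKM in CK2D, 51.6 and 46.2 in TL2D, and 43.8 and 44.2 in TL3D. Both leaf groups lay above the plate libraries with no overlap, and day 3 lay below day 2. The ratio of mean FPKM was 1.52 for TL2D over CK2D and 1.37 for TL3D over CK2D. Its level exceeded that of 63.9% to 77.8% of all genes, depending on the library.

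PCI_9466 had the largest ratio of the 4 genes. It stood at 0.941 and 0.81 FPKM in CK2D, 3.10 and 3.17 in TL2D, and 3.13 and 2.80 in TL3D. The plate libraries were the low ones, and the values of both leaf days overlapped. The ratio of means was 3.58 for TL2D over CK2D and 3.39 for TL3D over CK2D. On plates it stayed under 1 FPKM, so it entered the tests only through the leaf libraries.

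PCI_5044 was high at day 2 on leaves alone. It stood at 3.23 and 3.13 FPKM in CK2D, 6.71 and 6.82 in TL2D, and 3.90 and 2.75 in TL3D. The TL2D libraries lay above all others, and the TL3D values spanned those of the plates. The ratio of means was 2.13 for TL2D over CK2D and 1.05 for TL3D over CK2D, the latter resting on TL3D libraries on either side of the plate values.

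PCI_3476, numbered among genes of a qut-type cluster (below), was at 2.02 and 2.24 FPKM in CK2D, 3.57 and 3.20 in TL2D, and 2.95 and 3.17 in TL3D. The leaf libraries of both days lay above the plate libraries, and those of day 3 lay below those of day 2. The ratio of means was 1.58 for TL2D over CK2D and 1.43 for TL3D over CK2D. Of the 4 genes it was called higher least often under other settings of the fit, which describes the choice and tests nothing. PCI_7666, also named quinate permease but not chosen, stood at 3.54 and 4.37 FPKM in CK2D, 11.2 and 5.58 in TL2D, and 9.64 and 10.5 in TL3D. Its ratio of means, 2.13, was as high as that of PCI_5044, but its TL2D replicates lay far apart.

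**Figure D1:**
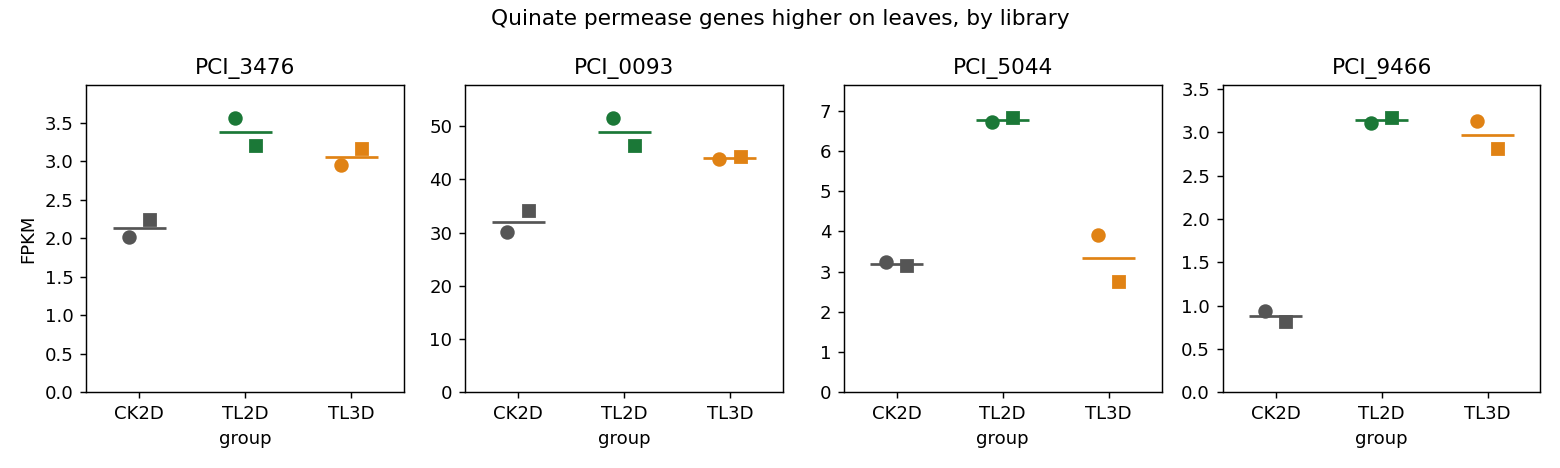
FPKM (y axis, from 0) of the 4 quinate permease genes in CK2D, TL2D and TL3D (x axis), with circles for replicate 1, squares for replicate 2 and bars for the mean of 2 libraries. PCI_9466 stays near 3 FPKM on both leaf days, while PCI_5044 is near 7 FPKM at day 2 only.

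The levels kept one order on plates, PCI_0093 above PCI_5044, PCI_3476 and PCI_9466, and neighbours in it did not overlap. In TL2D the order was the same, but the lower replicate of PCI_3476 (3.20 FPKM) and the higher of PCI_9466 (3.17 FPKM) were hardly apart. In TL3D the values of PCI_5044, PCI_3476 and PCI_9466 overlapped, between 2.75 and 3.90 FPKM, so their order did not differ beyond the spread. PCI_0093 alone made up 40.1% to 41.6% of the FPKM summed over all 17 quinate permease genes in CK2D, 54.6% to 58.6% in TL2D and 51.5% to 53.5% in TL3D. The 4 genes together summed to 36.3 and 40.3 FPKM in CK2D, 65.0 and 59.4 in TL2D, and 53.8 and 53.0 in TL3D. Without PCI_0093 the other 3 summed to 6.19 and 6.18, 13.4 and 13.2, and 9.98 and 8.72 FPKM.

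The comparison of TL3D with TL2D asks how mycelium on leaves differs between the days. The choice of genes did not use it, although both share the TL2D libraries, which were high by that choice. Of the 4 genes 0 passed, where limma called 6.77% of 8222 tested genes higher and 3.3% lower at day 3. PCI_5044 had a log2 change of −0.86 ± 0.18 (SE; adjusted p = 0.0536), just short of passing, with 2.03 times the FPKM in TL2D as in TL3D. It passed after median log ratio scaling (adjusted p = 0.0407), in a fit over all 6 libraries (adjusted p = 0.0198) and in the authors' deposited table (FDR = 0.00132). It did not pass with a pseudocount of 0.1 (adjusted p = 0.0654), with no filter on low values (0.0682), with the replicate number as a block (0.0674) or after upper-quartile scaling (0.0536). Without TL3D replicate 1 or 2 its adjusted p was 0.303 and 0.325, where 0 genes in all were called, and without TL2D replicate 1 or 2 it was 0.00159 and 0.00352, where 3251 and 2054 genes were called in place of 828. The log2 changes of PCI_0093 (−0.15 ± 0.11, adjusted p = 0.413), PCI_3476 (−0.11 ± 0.15, adjusted p = 0.66) and PCI_9466 (−0.06 ± 0.15, adjusted p = 0.811) did not pass. Unadjusted, PCI_5044 was the 1 gene of the 4 with p under 0.05 (p = 0.00573 in limma's fit), and by the authors' FDR it was likewise 1.

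The difference in direction between the 4 genes and the other 13 quinate permease genes in TL2D against CK2D is fixed by the choice. Of the 13, 10 had a lower mean in TL2D than in CK2D, and 8 reached 1 FPKM in at least 2 libraries. PCI_0784, the second most abundant on plates, stood at 11.4 and 14.2 FPKM in CK2D, 2.63 and 2.86 in TL2D, and 4.26 and 3.62 in TL3D. PCI_6523 stood at 4.34 and 3.84 FPKM in CK2D, 0.551 and 0.409 in TL2D, and 2.79 and 2.08 in TL3D. PCI_5788 stayed level, between 6.40 and 8.98 FPKM in all 6 libraries. The summed FPKM of the 13 was 36.0 and 44.8 in CK2D, 29.5 and 19.4 in TL2D, and 31.3 and 29.7 in TL3D.

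From day 2 to day 3 on leaves, 1 of the 6 tested genes among these 13 rose and 0 fell, against the 6.77% and 3.3% of all genes. It was PCI_6523, with a log2 change of 1.21 ± 0.19 (adjusted p = 0.0311). Both of its TL2D values lie under 1 FPKM, so it entered this test only through TL3D, where it is high, and the count of 1 rests on that. With no filter on low values its adjusted p was 0.0326. Without TL3D replicate 1 or 2 its adjusted p was 0.325 and 0.25, settings in which limma called 0 of all genes. PCI_7666 had a change of 0.30 ± 0.31 (adjusted p = 0.56), 0.75 without TL2D replicate 1 (adjusted p = 0.00117) and −0.15 without TL2D replicate 2 (adjusted p = 0.578). PCI_2268 had 0.38 ± 0.36 (adjusted p = 0.526), 0.89 without TL2D replicate 1 (adjusted p = 0.00158) and −0.14 without TL2D replicate 2 (adjusted p = 0.681). The remaining 7 genes were too low to be tested.

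**Figure D2:**
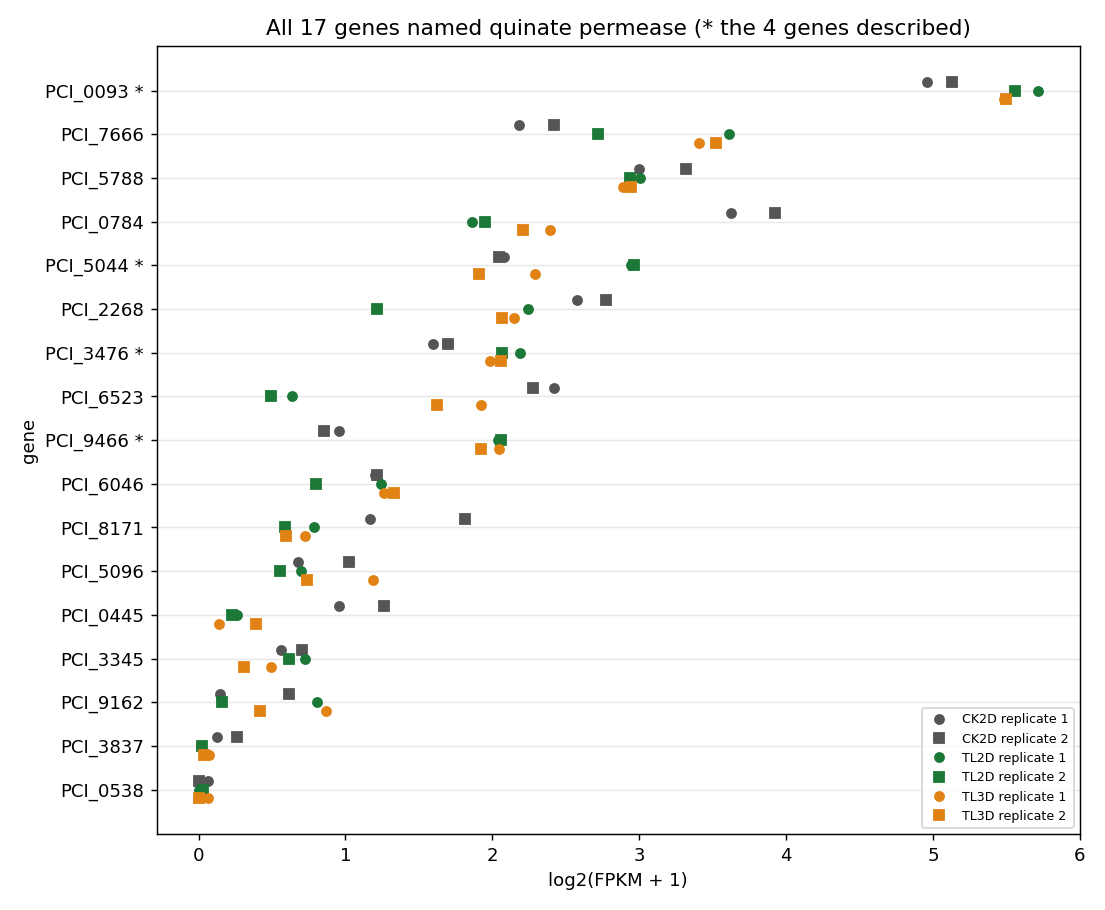
Levels of all 17 quinate permease genes on log2(FPKM + 1) (x axis), 1 row per gene in order of mean level, with colour for the group and circles and squares for replicates 1 and 2. Stars mark the 4 genes described, whose TL2D points lie to the right of the CK2D points, while those of PCI_0784 and PCI_6523 lie to the left.

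PCI_3476 belongs to a run of numbers, PCI_3471 to PCI_3478, whose product names match the qut cluster, apart from the hypothetical protein gene PCI_3477. The tables do not give positions, so closeness is known from the numbers only. Of the 7 other genes of the run, 4 rose and 2 fell in TL2D against CK2D, against 24.8% and 29.4% of all tested genes. The 4 that rose include the enzymes for all 3 steps from quinate to protocatechuate. The other was PCI_3477, which entered the test only through TL2D, where it is high. The median log2 change over the 7 genes was 2.17, against −0.10 over all tested genes. PCI_3471 and PCI_3472 were added to the run after their values were seen.

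The quinate dehydrogenase gene PCI_3475, for the first step, went from 3.02 and 3.03 FPKM in CK2D to 20.1 and 20.4 in TL2D, and stood at 12.9 and 15.1 in TL3D. It was 6.68 times higher in TL2D than CK2D (log2 2.40 ± 0.12, adjusted p = 0.000706). The catabolic 3-dehydroquinase gene PCI_3473, for the next step, was at 3.53 and 5.16 FPKM, then 24.0 and 21.5, then 21.0 and 16.6, a 5.23-fold rise in TL2D (log2 2.17 ± 0.19, adjusted p = 0.0023). All leaf libraries of both genes lay above all plate libraries. The 3-dehydroshikimate dehydratase gene PCI_3478, whose product makes protocatechuate, was at 1.92 and 1.83 FPKM, then 13.4 and 11.0, then 8.31 and 9.15, a 6.50-fold rise (log2 2.19 ± 0.16, adjusted p = 0.00146). The hypothetical protein gene PCI_3477 was at 0.608 and 0.487 FPKM, then 6.56 and 5.86, then 5.48 and 5.39 (log2 2.22 ± 0.16, adjusted p = 0.00141). PCI_3477 was under 1 FPKM in both CK2D libraries and entered the test only through TL2D, where it is high; with no filter on low values its adjusted p was 0.00208. With a lone CK2D library, the adjusted p of these 4 genes was 0.0216 to 0.0302.

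Both genes of the run with regulator names were lower on leaves. The quinate repressor gene PCI_3471 was at 10.1 and 10.4 FPKM in CK2D, 5.19 and 3.94 in TL2D, and 6.71 and 7.14 in TL3D, and fell by 1.03 ± 0.16 on the log2 scale in TL2D (adjusted p = 0.00863). The activator gene PCI_3472 was at 6.09 and 6.76 FPKM, then 2.76 and 1.62, then 3.22 and 3.46, and fell by 1.24 ± 0.22 (adjusted p = 0.0118). Without CK2D replicate 1 the adjusted p of these genes was 0.0779 and 0.0797, and without CK2D replicate 2 it was 0.0821 and 0.0929. The qutG gene PCI_3474, part of the cluster in *Aspergillus nidulans*, was at 25.7 and 26.9, then 38.5 and 31.4, then 29.1 and 26.3 FPKM (log2 0.39 ± 0.13, adjusted p = 0.0613). It passed after median log ratio scaling (adjusted p = 0.0231), over all 6 libraries (adjusted p = 0.0362), without TL2D replicate 2 (adjusted p = 0.0113) and in the authors' deposited table (FDR = 0.00213).

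In FPKM, the permease gene of the run had a smaller leaf over plate ratio than the genes for the 3 steps from quinate to protocatechuate. PCI_3475 had 1.49 and 1.35 times the FPKM of PCI_3476 in the CK2D libraries, 5.62 and 6.37 times in TL2D, and 4.38 and 4.76 times in TL3D. PCI_3473 had 1.75 and 2.30 times, then 6.72 and 6.73 times, then 7.12 and 5.23 times. PCI_3478 had 0.949 and 0.817 times, then 3.77 and 3.43 times, then 2.82 and 2.89 times. In none of the 3 did the plate and leaf ratios overlap. With 2 libraries against 2 these ratios were not tested.

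From day 2 to day 3, 0 of the 7 genes passed the test, against 6.77% higher and 3.3% lower of all genes. For 7 genes a count of 0 is near those shares. Unadjusted, 3 had p under 0.05. Either scaling, the smaller pseudocount, the replicate block or dropping the low-value filter also left 0 called. PCI_3475 had a log2 change of −0.50 ± 0.13 (adjusted p = 0.0749). It passed over all 6 libraries (adjusted p = 0.0355) and in the authors' deposited table (FDR = 0.0214). PCI_3471 had 0.52 ± 0.17 (adjusted p = 0.123; FDR = 0.0201 in the authors' deposited table). With 1 replicate left out, the change ranged from −0.61 to −0.40 for PCI_3475 and from 0.36 to 0.68 for PCI_3471. Those ranges were 0.21 to 0.73 for PCI_3472, −0.46 to −0.18 for PCI_3474 and −0.57 to −0.30 for PCI_3478.

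**Figure D3:**
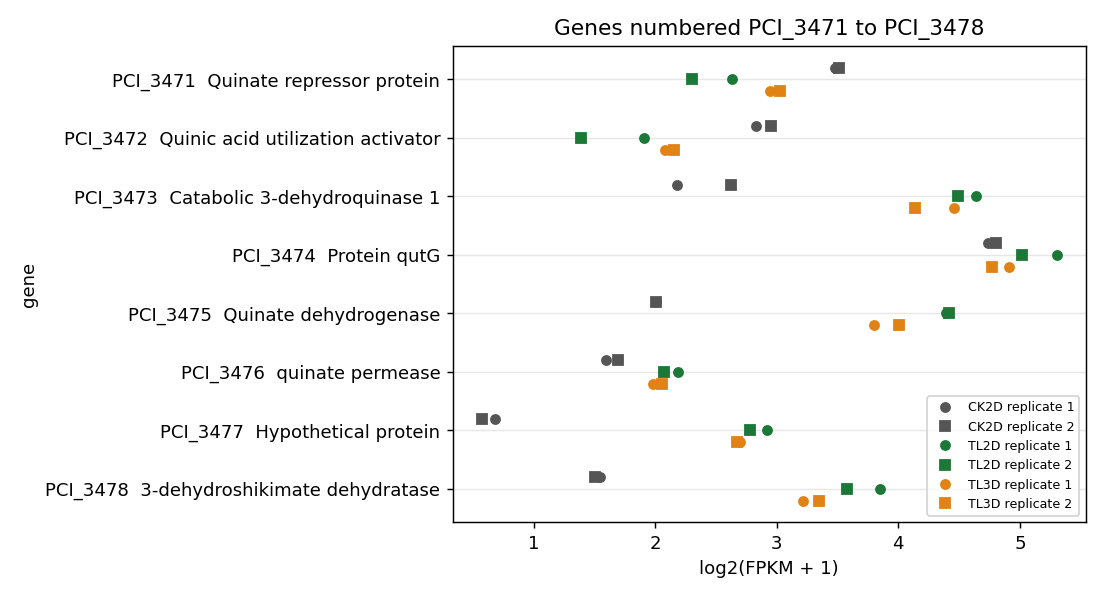
Levels of the genes PCI_3471 to PCI_3478 on log2(FPKM + 1) (x axis), 1 row per gene, coloured by group, with circles and squares for replicates 1 and 2. The rows of PCI_3473, PCI_3475, PCI_3477 and PCI_3478 show the leaf libraries well to the right of the plate libraries, and those of PCI_3471 and PCI_3472 to the left.

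The other 3 permease genes stand apart from genes with quinate names by number. Beside PCI_3476, outside the run, the sterol glucosyltransferase gene PCI_3479 went from 3.46 and 4.33 FPKM in CK2D to 0.772 and 0.166 in TL2D and 6.39 and 4.90 in TL3D. It fell by 1.76 ± 0.26 (log2, adjusted p = 0.00774) and then rose by 2.20 ± 0.27 (log2, adjusted p = 0.021), entering each test only through the group where it is high. Without CK2D replicate 1 or 2 the adjusted p of its fall was 0.0572 and 0.0687, and without TL3D replicate 1 or 2 that of its rise was 0.293 and 0.23. Beside PCI_9466, the gene PCI_9465, annotated with the sterigmatocystin monooxygenase stcW, rose from 5.27 and 5.75 FPKM in CK2D to 30.8 and 35.6 in TL2D (log2 2.39 ± 0.13, adjusted p = 0.000957). PCI_9464, named an acyl-CoA dehydrogenase, rose from 0.769 and 0.754 to 1.59 and 1.49 FPKM (log2 0.53 ± 0.16, adjusted p = 0.0453; 0.166 without CK2D replicate 1 and 0.173 without replicate 2). It too entered the test only through TL2D, where it is high, and without TL2D replicate 1 or 2 its adjusted p was 0.0836 and 0.0723. Beside PCI_0093, the RNA helicase gene PCI_0091 rose 2.25-fold (adjusted p = 0.00271) and fell by 0.64 ± 0.11 (log2) to day 3 (adjusted p = 0.0344; 0.331 and 0.276 without TL3D replicate 1 and 2). The hypothetical protein gene PCI_0095 fell by 1.32 ± 0.17 (log2, adjusted p = 0.00571; 0.061 without CK2D replicate 1 and 0.0557 without replicate 2). Next to it, the amidohydrolase gene PCI_0094 rose 1.81-fold (adjusted p = 0.00684; 0.0659 without CK2D replicate 1 and 0.0507 without replicate 2). The gene PCI_0092, annotated with the nitrogen regulator nit-4, fell by 0.81 ± 0.14 (log2, adjusted p = 0.0113; 0.0711 and 0.0938 without those replicates). Beside PCI_5044, the transporter gene PCI_5045 and the carboxylesterase gene PCI_5046 fell by 2.23 ± 0.28 and 2.25 ± 0.28 (log2, adjusted p = 0.00507 and 0.0051), and without those replicates PCI_5046 did not pass (adjusted p = 0.055 and 0.0553). Over the 22 genes within 3 numbers of a member, of which 21 were tested, 8 rose and 7 fell in TL2D, against 24.8% and 29.4% of all genes. Of these calls, 2 rises and 1 fall were of genes that entered the test through 1 group only. The 8 rises include PCI_3473, PCI_3475, PCI_3477 and PCI_3478, already counted in the run above. Those beside the other 3 permease genes were PCI_0091, PCI_0094, PCI_9464 and PCI_9465. Without CK2D replicate 1, 6 rose and 1 fell, and as many without replicate 2. From day 2 to day 3, 1 of 20 tested rose and 1 fell, against 6.77% and 3.3% of all genes, with 0 called without either TL3D replicate.

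Over all 17 genes named for quinate or shikimate use, 3 rose and 6 fell in TL2D against CK2D, with a median log2 change of −0.45, beside 24.8% higher, 29.4% lower and a median of −0.10 over all tested genes. The counts of the list are near those shares. The 3 that rose are the enzymes of the run above. The 6 that fell include PCI_6314, another 3-dehydroshikimate dehydratase gene, from 1.60 and 1.50 FPKM to 0.426 and 0.371 (log2 −0.87 ± 0.16, adjusted p = 0.0132), and the repressor-type gene PCI_5113, from 13.1 and 13.2 to 7.53 and 7.63 FPKM (log2 −0.73 ± 0.11, adjusted p = 0.00826). Without either CK2D replicate the 3 rises passed and 0 of the 6 falls did, with adjusted p up to 0.168 and 0.195. At day 3 against day 2, 3 of the 17 rose and 0 fell, against 6.77% and 3.3% of all genes. The largest was a dehydratase gene elsewhere, PCI_8991, from 1.97 and 0.346 FPKM in TL2D to 39.7 and 28.0 in TL3D, after 2.48 and 3.38 in CK2D (log2 4.10 ± 0.42, adjusted p = 0.017). PCI_6314 rose to 2.29 and 2.72 FPKM (log2 1.32 ± 0.17, adjusted p = 0.023). Under 1 FPKM in both TL2D libraries, it entered each of its tests only through the group where it is high, and with no filter on low values its adjusted p was 0.00538 for the fall and 0.0274 for the rise. The activator-type gene PCI_1122 rose 2.10-fold (adjusted p = 0.0456; 0.0665 with the replicate number as a block, and 0.0557 with a pseudocount of 0.1). Without TL3D replicate 1 or 2 none of these 3 passed, with adjusted p from 0.224 to 0.382.

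A list of ring cleavage and related aromatic genes had 10 tested of 14. Of these, 4 rose and 0 fell in TL2D, against 24.8% and 29.4% of all genes. The list also holds genes named for catechol, hydroxybenzoate and dihydroxybenzoate, so its counts are not of steps from protocatechuate alone. Of the 4 that rose, PCI_6073 and PCI_4472 are named for catechol and PCI_4328 for dihydroxybenzoate. The consecutively numbered genes PCI_6073 and PCI_6072 rose most. PCI_6073, a catechol 1,2-dioxygenase, opens the ring of catechol, and went from 3.47 and 3.43 FPKM in CK2D to 55.5 and 57.4 in TL2D and 53.1 and 55.1 in TL3D (log2 3.69 ± 0.10 for TL2D against CK2D, adjusted p = 0.000179). PCI_6072, a carboxy-cis,cis-muconate cyclase, whose kind in *Neurospora* acts on the opened ring of protocatechuate, went from 3.41 and 3.52 to 18.0 and 23.1 FPKM and then 20.3 and 16.5 (log2 2.26 ± 0.16, adjusted p = 0.00148). Both leaf days lay far above the plates, like those of PCI_9466. The protocatechuate 3,4-dioxygenase gene PCI_6100 was listed at 0 in both CK2D libraries and at 0.314 and 0.154 FPKM in TL2D, too low to be tested. The decarboxylase gene PCI_4328 rose from 31.4 and 33.5 to 80.9 and 101 FPKM and fell by 1.11 ± 0.14 (log2) to 42.7 and 40.2 in TL3D (adjusted p = 0.00276 and 0.0223). The second catechol dioxygenase gene PCI_4472 rose by log2 0.95 ± 0.20 (adjusted p = 0.0175). Without either CK2D replicate PCI_4472 did not pass (adjusted p = 0.107 in each case), while the other 3 did. The fall of PCI_4328 was not called without TL3D replicate 1 or 2 (adjusted p = 0.293 and 0.25).

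Of 5 genes for enzymes that split plant phenolic esters, 2 could be tested, and 2 rose in TL2D, against 24.8% of all genes. Feruloyl esterase A (PCI_7559), which frees ferulic acid from plant cell walls, was listed at 0 in both CK2D libraries and stood at 7.80 and 14.2 FPKM in TL2D and 6.07 and 6.33 in TL3D (log2 3.53 ± 0.30 for TL2D against CK2D, adjusted p = 0.00206). It entered that test only through TL2D, where it is high, so the count of 2 rests partly on the filter; with no filter on low values its adjusted p was 0.00373. Feruloyl esterase B-2 (PCI_8989) went from 0.934 and 1.69 to 3.63 and 4.48 FPKM (log2 1.14 ± 0.23, adjusted p = 0.0155; 0.0882 without CK2D replicate 1 and 0.0526 without replicate 2). At day 3 against day 2, 0 of the 2 tested genes passed, against 6.77% higher and 3.3% lower of all genes. For 2 genes a count of 0 is near those shares. Unadjusted p in limma's fit was under 0.05 in 1, and FDR in the authors' deposited table was under 0.05 in 0.

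Quinate breakdown shares intermediates with the shikimate pathway, which makes aromatic amino acids. Of the 11 tested genes of its list 7 rose and 3 fell in TL2D, against 24.8% and 29.4% of all genes. The median log2 change was 0.48. The search term chorismate synthase also caught PCI_4201, named for a different enzyme, aminodeoxychorismate synthase. It is among the 3 that fell (log2 −0.97 ± 0.12, adjusted p = 0.00464). The DAHP synthase gene PCI_6404, for the entry step, rose 1.83-fold (adjusted p = 0.00388), and the prephenate dehydrogenase gene PCI_6755, in tyrosine synthesis, rose 2.12-fold (adjusted p = 0.0116). Of the genes annotated AROM, a polypeptide that carries the central steps, PCI_8439 rose from 49.9 and 44.8 to 67.5 and 71.2 FPKM (adjusted p = 0.0126), and PCI_4104 fell from 16.2 and 16.0 to 7.69 and 5.86 (adjusted p = 0.00639). Without CK2D replicate 1 and 2, 1 and 0 of these 10 calls passed, with adjusted p up to 0.104 and 0.187. From day 2 to day 3, 0 rose and 2 fell, against 6.77% and 3.3% of all genes. They were PCI_6404 (log2 −0.60 ± 0.09, adjusted p = 0.0302) and the chorismate mutase gene PCI_3178 (−0.53 ± 0.11, adjusted p = 0.0453), neither of them called without TL3D replicate 1 or 2 (adjusted p from 0.267 to 0.325).

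**Figure D4:**
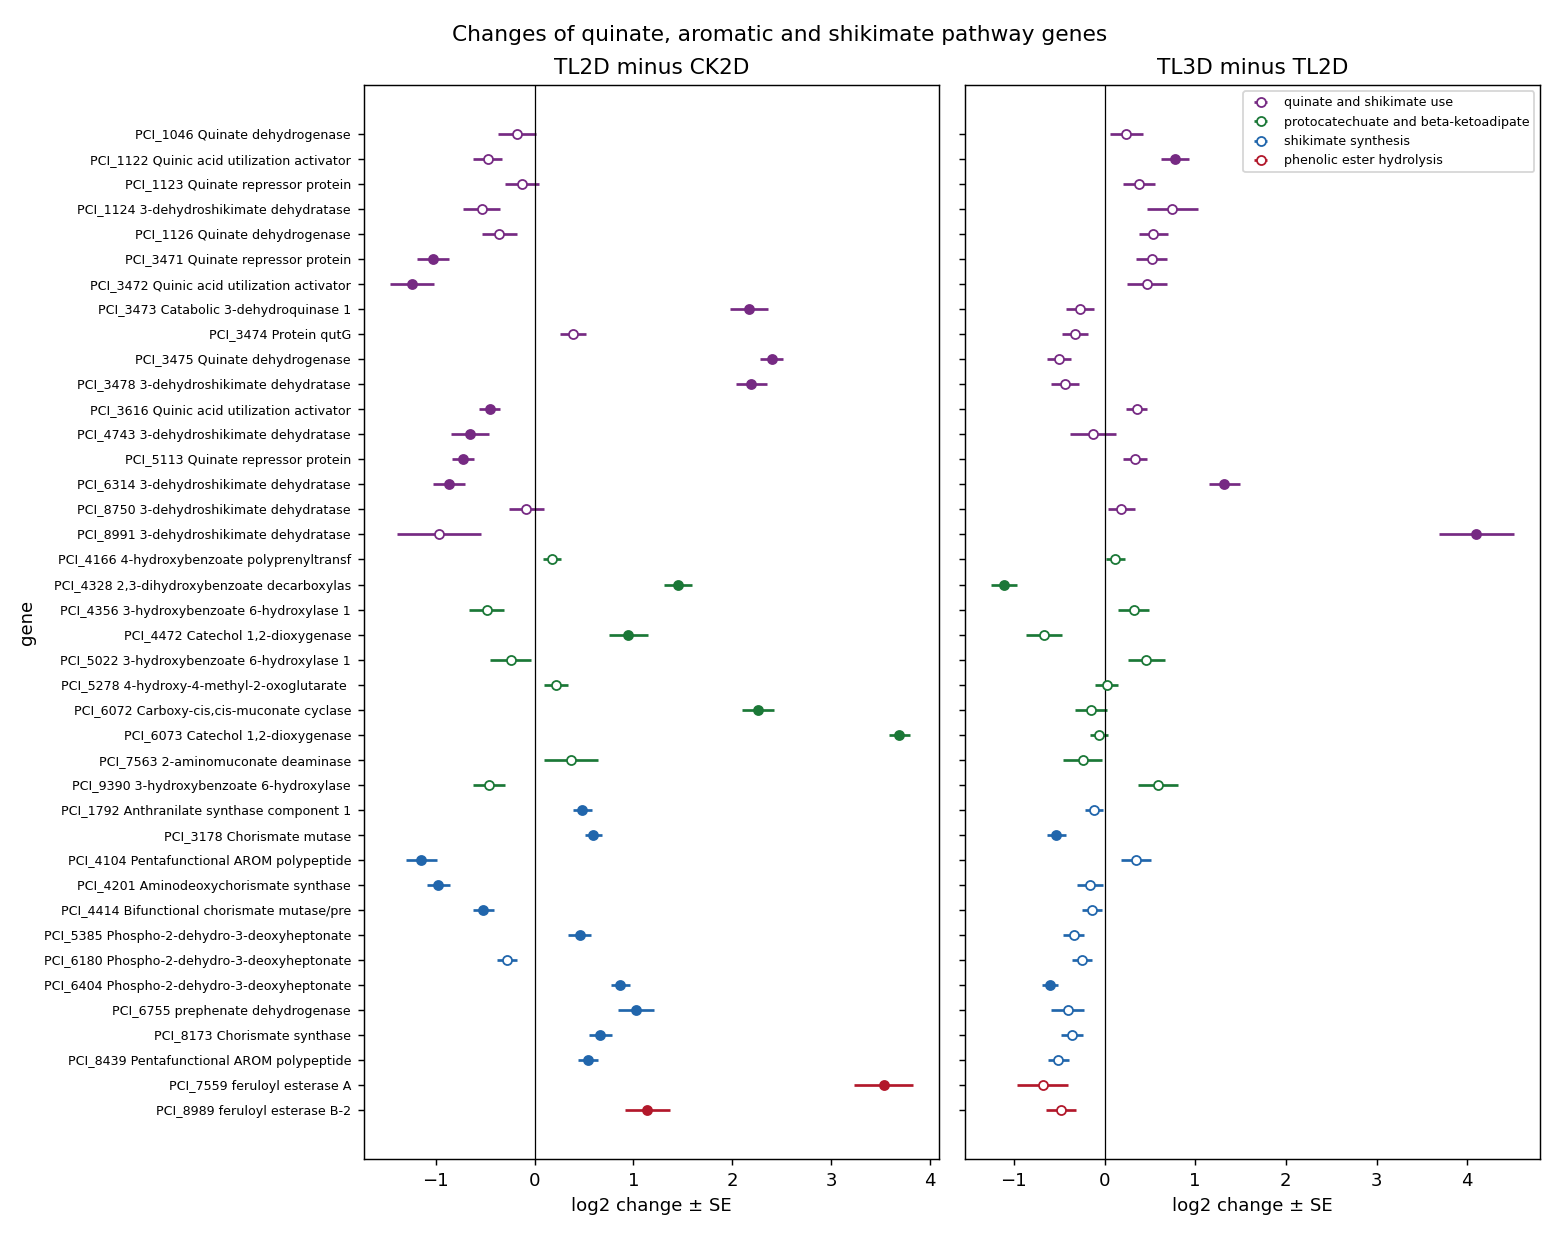
Fitted log2 change ± SE (x axes) of the 40 genes of these lists that were tested in both comparisons, 1 row per gene and coloured by list, for TL2D minus CK2D (left) and TL3D minus TL2D (right). Filled points passed at an adjusted p under 0.05. On the left PCI_6073 and PCI_7559 lie farthest to the right, and on the right PCI_8991 does.

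Among sugar transporters, the wider family of the permeases, more genes fell than rose in TL2D. Of 72 genes with sugar transport names other than quinate permease, 51 were tested in TL2D against CK2D. Of these, 4 rose and 34 fell, against 24.8% and 29.4% of all genes. Among these calls, 1 rise and 7 falls were of genes that entered the test through 1 group only, so the counts rest partly on the filter. The median log2 change of the 51 genes was −0.88. Without CK2D replicate 1 the counts were 1 and 11, and without CK2D replicate 2 they were 0 and 11. From day 2 to day 3, 12 of 47 rose and 0 fell, against 6.77% and 3.3% of all genes. Among these rises, 1 was of a gene that entered the test through 1 group only. With no filter on low values 8 rose, and 0 were called without either TL3D replicate.

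The genes with the most similar course were ranked by the root mean square difference of log2(FPKM + 1), centred on each gene's mean over the 6 libraries, among 6905 genes with an informative name. Nearest to PCI_9466 was the choline transport protein gene PCI_2822 (difference of 0.0578), at 2.05 and 1.95 FPKM in CK2D, 5.71 and 6.23 in TL2D, and 6.29 and 5.46 in TL3D. The sugar transporter gene PCI_3411, annotated STL1, came next (0.0757), and the cytochrome c gene PCI_2023 after it (0.0955). Nearest to PCI_5044 were the tRNA-splicing endonuclease subunit gene PCI_6682 (0.101), the secondary metabolism regulator gene PCI_2411, annotated LAE1 (0.134), and the L-galactonate dehydratase gene PCI_6816 (0.142). Nearest to PCI_3476 were PCI_5508, annotated grc3 (0.0317), the transporter gene PCI_6726 (0.0341) and PCI_4776, annotated vts1 (0.0413). PCI_6726 also came first for PCI_0093 (0.0396), followed by the Rab GDP-dissociation inhibitor gene PCI_0974 (0.0454) and the ADP-ribosylation factor-like gene PCI_0089 (0.0498). PCI_6726 was low, at 0.511 and 0.663 FPKM in CK2D, 1.38 and 1.25 in TL2D, and 1.07 and 1.21 in TL3D. Its ratio of means for TL2D over CK2D was 2.24, against 1.52 for PCI_0093 and 1.58 for PCI_3476. Its nearness to both therefore rests partly on the 1 FPKM added before the log. The same ratio was 3.58 for PCI_9466, against 2.99 for PCI_2822, 2.59 for PCI_3411 and 2.38 for PCI_2023. It was 1.36 for PCI_4776, against 1.58 for PCI_3476. Both permease genes are low, so nearness to them also rests partly on the added 1 FPKM.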

How the data were processed

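Total RNA of 6 libraries was sequenced. Per the file headers, the deposited tables hold FPKM per library, made by the authors. The submitters' processing notes name Cufflinks without a version. For the aligner, build and gene models nothing is given in the sources used here. Also, the deposited ratio (fold change) of mean FPKM and its deposited log2 were checked: recomputed log2 values matched for 100% of 9385 genes within 0.001. The authors' deposited FDR is an adjusted p-value, and its test is not given. Low values did not fall on steps of whole reads, so depth is unknown and no count test or counting interval was possible. Genes alike in sequence may share fragments.

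A gene was tested if 2 or more of the 4 libraries had 1 FPKM or more, on log2(FPKM + 1) with limma 3.58.1 in R 4.3.3 (eBayes with trend), two-sided, with Benjamini-Hochberg adjustment across every tested gene, and called at an adjusted p under 0.05. Folds are ratios of mean FPKM. The fitted changes understate those of low genes. The fit was tested on simulated data. Lists are search terms on product names, and from the sugar transport list enzymes and a regulator were left out by name. Named genes are the 4 members, the other quinate permeases, the lists' genes (those over 12 genes by counts and extremes), the genes within 3 numbers of a member and the 3 of most similar course; those without a sentence stand in the counts. The members and lists were chosen with earlier results of these data known. Alternatives were each replicate left out, a block for replicate number, dropping the low-value filter, a pseudocount of 0.1, median log ratio and upper-quartile scaling, all 6 libraries, and the authors' FDR. An exact permutation test of 2 libraries against 2 could not pass, so none was run.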

Additional observations from a re-analysis of the deposited data

How the results depend on the processing

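The 4493 genes called in TL2D against CK2D ranged from 1131 to 5229 when 1 replicate was left out. The 828 called in TL3D against TL2D ranged from 0 to 3251, and were 1515 over all 6 libraries and 1842 by the authors' deposited FDR. Only 2 replicate numbers exist, so whether they pair the samples cannot be told. The replicate differences correlated at −0.08 (CK2D and TL2D) and 0.17 (TL2D and TL3D) over 8407 genes, which does not settle it. With the replicate number as a block the counts were 3568 and 739, and the log2 change of PCI_5044 from day 2 to day 3 stayed −0.86 (adjusted p = 0.0674). That change was −0.89 and passed with median log ratio scaling, was −0.86 and passed over all 6 libraries, was −1.02 in the authors' deposited table, and ranged from −1.05 to −0.66 with 1 replicate left out. The same ranges were −0.22 to −0.07 for PCI_0093, −0.17 to −0.05 for PCI_3476 and −0.12 to −0.00095 for PCI_9466. The log2 ratio of PCI_5044 for TL2D over CK2D was 1.18 with median log ratio scaling (1.09 as reported), and that for TL3D over CK2D (0.07) ranged from −0.21 to 0.30. In TL3D against TL2D, PCI_5278 was −0.018 with median log ratio scaling and PCI_5043 was 0.0033 with upper-quartile scaling. With 1 replicate left out, signs turned for PCI_8750 in TL2D against CK2D (−0.24 to 0.073) and, in TL3D against TL2D, for PCI_2268 (−0.14 to 0.89), PCI_7666 (−0.15 to 0.75), PCI_4743 (−0.39 to 0.14), PCI_0796 (−0.016 to 0.067), PCI_5278 (−0.044 to 0.089), PCI_6072 (−0.32 to 0.021), PCI_0092 (−0.055 to 0.24), PCI_5043 (−0.27 to 0.25), PCI_9465 (−0.14 to 0.064) and PCI_9468 (−0.18 to 0.030). Over 120 other single-gene results, 796 of 840 values under other settings kept direction and call, as did 360 of 480 with 1 replicate left out. The cause was not tested, and the read depth is unknown.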

Other observations

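A second run of numbers, PCI_1122 to PCI_1127, holds names like those of the qut cluster, but no permease name. Its quinate dehydrogenase gene PCI_1126 stood at 2.14 and 1.60 FPKM in CK2D, 1.20 and 1.26 in TL2D, and 2.39 and 2.11 in TL3D. Its 3-dehydroshikimate dehydratase gene PCI_1124 stood at 3.78 and 4.62, then 2.98 and 2.21, then 6.60 and 3.73 FPKM. Its AROM-type gene PCI_1127 stayed at or under 0.413 FPKM in all 6 libraries. Of 5 tested genes of that run, limma called 0 in TL2D against CK2D, beside 24.8% of all genes higher and 29.4% lower. At an unadjusted p under 0.05 2 fell, and 1 fell by the authors' deposited FDR. From day 2 to day 3, 1 rose, PCI_1122, against 6.77% higher and 3.3% lower of all genes. It did not pass with a pseudocount of 0.1 (adjusted p = 0.0557) or with the replicate number as a block (adjusted p = 0.0665). The run was chosen after its values were seen.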
